A study of Homo sapiens with 12 samples.

Results

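The genes described here were 9 genes of melanosome transport and sorting: RAB27A, MLPH, MYO5A, RAB38, RAB32, HPS1, HPS4, AP3B1 and LYST. They were chosen by name and function from the 35579 genes for which counts could be summed, and no threshold on a measured value entered the list. It was nevertheless proposed with earlier results of the same comparisons with control in view, so its counts and tests are read as a description. RNA was sequenced from WM-266-4, an established human melanoma cell line carrying a stable lentiviral shRNA against the receptor tyrosine kinase TYRO3 in every group, the controls included. On this background the cells were transfected with a pEZY-myc-his plasmid for GFP (control), for wild-type TYRO3 (WT), for TYRO3 with the substitution I449A that resists gamma-secretase (ΔGS), or for TYRO3 with P408A, L409P and G419P that resists ADAM sheddases (ΔADAM). The cells were grown in puromycin and kept without serum overnight before lysis. The labels name GFP as the insert of the control plasmid, whereas the study describes its control as a plasmid without TYRO3 that is empty, so the insert is given as labelled. Each of 3 experiments held 1 library of each of the 4 groups, which gives 12 libraries. All groups come from the same knock-down line. Each TYRO3 plasmid was compared with the same 3 control libraries, so the 3 comparisons are not independent of each other.

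Melanosomes are lysosome-related organelles in which melanocytes make and store pigment. Cargo such as tyrosinase is sorted from endosomes to maturing melanosomes by adaptor and BLOC complexes together with the GTPases RAB32 and RAB38, and mature melanosomes are held at the cell periphery by RAB27A, its effector melanophilin and the actin motor myosin Va. Loss of RAB27A, MYO5A or MLPH causes forms of Griscelli syndrome, loss of HPS1, HPS4 or AP3B1 causes forms of Hermansky-Pudlak syndrome, and loss of LYST causes Chediak-Higashi syndrome, all with reduced pigmentation.

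The libraries held between 4008293 (control, experiment 1) and 38184838 estimated counts, with a median of 23302001, and the next lowest held 18365999. Transfected TYRO3 was read at 1181 to 3694 CPM (counts relative to the TMM-scaled size of the library) in the 9 TYRO3 libraries and at 47.3 to 56.6 CPM in the controls. The melanocyte markers PMEL, at 745 to 1354 CPM, and SOX10, at 346 to 604 CPM, were high, but TYRP1 stayed at 0.526 to 3.24 CPM and TYR at 6.76 to 17.5 CPM, so the RNAs of these pigment enzymes were scarce, while that of DCT was at 74.5 to 444 CPM. Of 11 markers of keratinocytes, endothelial cells and leukocytes, KRT5 and KRT1 were at 0 in every library and 10 were at or under 2.01 CPM. The summed level of these 11 markers, nearly all from KRT10, was 39.7 to 54.4 CPM in control libraries and 35.1 to 53.7 CPM in the 9 TYRO3 libraries.

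Between genes, levels were compared in TPM, which corrects for transcript length as CPM does not. In the control libraries HPS4 had the highest level of the 9 genes, at 73.0 ± 8.86 TPM (SD, n = 3). RAB38 followed at 59.7 ± 20.8 TPM, RAB27A at 50.1 ± 13.2, RAB32 at 49.6 ± 13.6, HPS1 at 47.4 ± 7.53, MYO5A at 44.1 ± 5.23 and AP3B1 at 42.6 ± 1.15 TPM. LYST had 26.4 ± 3.70 TPM and MLPH 6.56 ± 3.64 TPM. Neighbours from HPS4 down to AP3B1 overlapped in their library values, whereas LYST lay under AP3B1 and MLPH under LYST in each control library. MLPH, the linker between RAB27A and myosin Va, was thus the gene of the transport complex with the least RNA, and its lowest library held 21 counts.

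**Figure D1:**
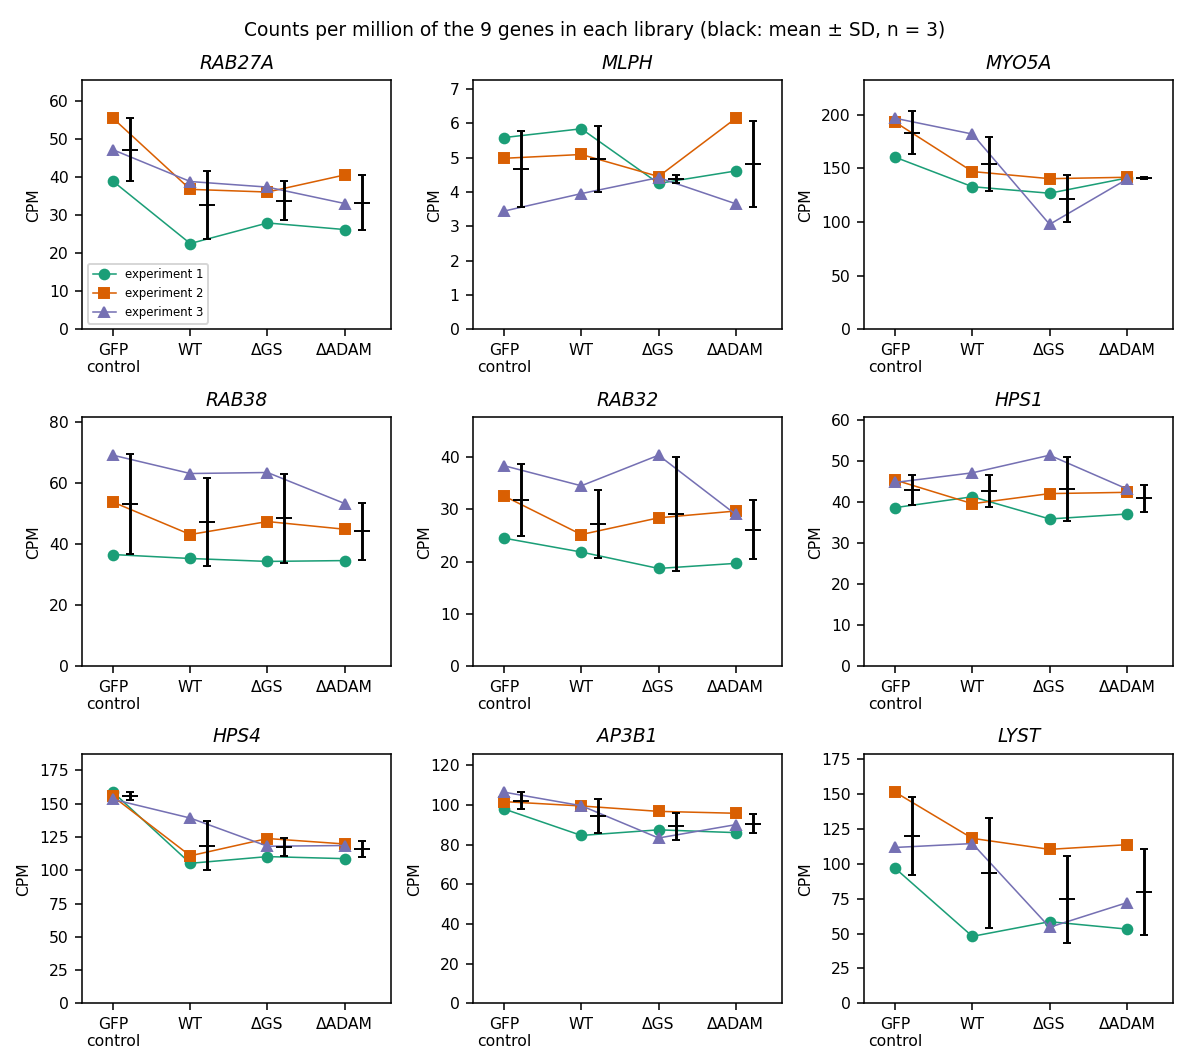
CPM of each gene (vertical axes, from 0) in the control, WT, ΔGS and ΔADAM libraries, with one coloured line per experiment and black bars for the mean ± SD of 3 libraries. HPS4 sits at 153 to 159 CPM in the controls and at 105 to 139 CPM in the 9 TYRO3 libraries. The other genes show no such gap between controls and TYRO3 libraries. The share of all genes tested with a gap was not counted.

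The first question was whether the RNA of these genes differed from control when TYRO3 was present. Fold changes came from a fit with a term for each experiment, and a gene passed the test at an adjusted p (over 15098 genes) of at most 0.05. It was called where the change also exceeded 1.5-fold. Of the 9 genes, 8 had lower fitted levels with WT TYRO3, 9 with ΔGS and 8 with ΔADAM, beside 50.5%, 49% and 50.3% of all genes tested. Their median log2 fold changes were -0.22, -0.19 and -0.27. The medians over all 15098 genes tested were -0.00255, 0.00663 and -0.00207. The test was passed by 2, 3 and 2 of the 9 genes, all lower than control, where 1.44%, 4.44% and 5.32% of all genes passed as lower and 2.15%, 4.52% and 4.86% as higher. Called were 0, 1 and 0 of the 9, where 2.35%, 4.69% and 5.19% of all genes were called either way, 0.689%, 1.88% and 2.05% as lower and 1.66%, 2.81% and 3.15% as higher. Nothing particular to the list is read from counts of this size. These results depended on the term for each experiment. With a batch term that sets experiment 1 against experiments 2 and 3 in its place, none of the 9 genes passed in any comparison. In limma on log2 TPM and in experiments 2 and 3 alone, which kept a term for each experiment, none passed either. None passed without the control library of experiment 1, the shallowest one. In bulk RNA, fewer cells of a type and less RNA per cell cannot be told apart.

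**Figure D2:**
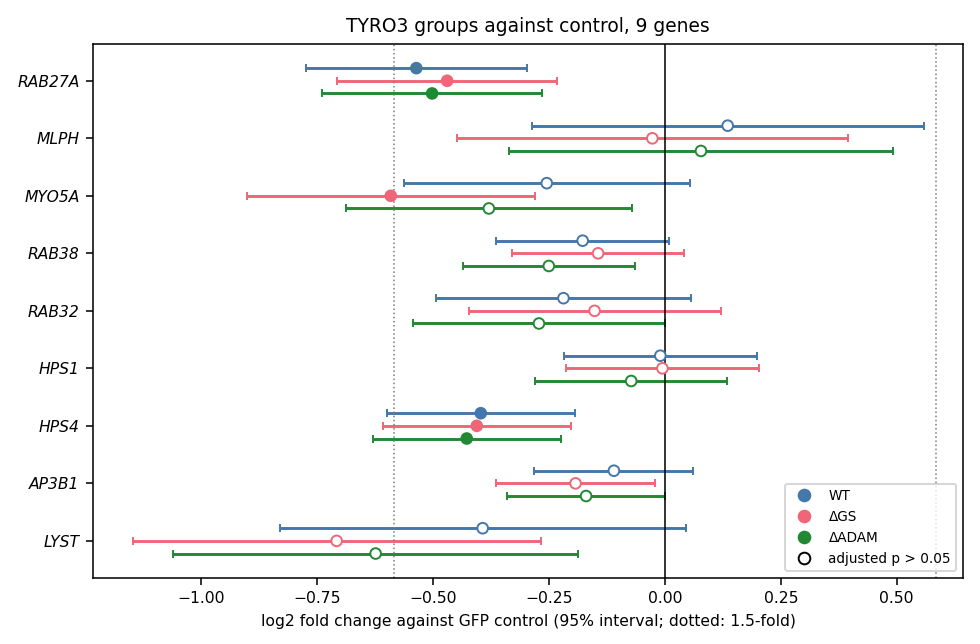
Log2 fold change against control (horizontal axis) with its 95% interval for each gene and TYRO3 plasmid; filled points have an adjusted p of at most 0.05 and dotted lines mark 1.5-fold. RAB27A and HPS4 are filled for all 3 plasmids, MYO5A for ΔGS alone, and the intervals of one gene overlap between plasmids.

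RAB27A (ENSG00000069974, GRCh38 chr15:55202966-55319113, minus strand) encodes the small GTPase that marks mature melanosomes and, in other cells, secretory lysosomes and exosome-releasing endosomes. Its level was 38.9, 55.4 and 47.1 CPM in the control libraries of experiments 1, 2 and 3. It was 22.5, 36.7 and 38.8 CPM with WT TYRO3, 27.9, 36.0 and 37.3 CPM with ΔGS, and 26.2, 40.5 and 33.0 CPM with ΔADAM. Within each experiment all 3 TYRO3 libraries were below their control, although the ΔADAM library of experiment 2 exceeded the control of experiment 1. The share of all genes tested that do the same within experiments was not counted. On the log2 scale WT TYRO3 changed RAB27A by -0.54 (SE 0.11, adjusted p = 0.0270), which is 31.0% lower. It was -0.47 with ΔGS (adjusted p = 0.0253) and -0.50 with ΔADAM (adjusted p = 0.0195). With the batch term for experiment 1 alone the adjusted p was 0.103, 0.0727 and 0.0574 in the same order. RAB27A passed for no plasmid in limma at a pseudocount of 1 TPM (-0.36, -0.28 and -0.30, with adjusted p-values of 0.0961, 0.126 and 0.102), with length-scaled counts (0.0661, 0.149 and 0.0682) or in experiments 2 and 3 alone (0.394, 0.116 and 0.137). With only the groups compared in the fit it passed for ΔADAM alone (0.110, 0.0668 and 0.0208). Without the control library of experiment 1 it was 0.101, 0.0926 and 0.0783, with log2 fold changes of -0.49, -0.42 and -0.45. Leaving out each of the 12 libraries in turn, RAB27A no longer passed in 5, 5 and 4 cases: those of the control libraries of experiments 1 and 2 and of ΔADAM of experiment 1 in each comparison, and those of WT of experiments 1 and 2, ΔGS of experiments 1 and 2 and ΔADAM of experiment 3 in their own. The log2 fold change then stayed between -0.66 and -0.39.

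A single transcript, RAB27A-212, held 71.9% ± 1.9 of the TPM of RAB27A in the controls and 70.2% ± 6.3, 74.0% ± 5.3 and 68.2% ± 2.3 with WT, ΔGS and ΔADAM TYRO3 (SD, n = 3). It led the gene in every group. Exons of RAB27A overlap those of PIGB on the opposite strand, at a mean of 16.2 CPM, and of PIGBOS1 on the same strand, at 11.4 CPM, and the strand setting of the counting is not given in the sources used here. RAB27B, the close paralogue that can stand in for RAB27A in some cells, had 6.22 to 10.7 CPM in the controls and 6.08 to 16.5 CPM in the TYRO3 libraries. In CPM it was higher than control in 8 of 9 within-experiment differences, and the share of all genes that do the same was not counted. In TPM, WT and ΔGS of experiment 1 (2.94 and 2.88 beside 3.46) and ΔGS of experiment 3 (1.19 beside 1.31) were below control. The control library of experiment 1 held 35 counts of RAB27B. Its log2 fold changes were 0.36, 0.37 and 0.40, with adjusted p-values of 0.154, 0.102 and 0.0751. In this fit the paralogues had changes of opposite sign, but that of RAB27B did not pass.

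MLPH (ENSG00000115648, chr2:237485428-237555318, plus strand) encodes melanophilin, which binds RAB27A on the melanosome and recruits myosin Va. It was read at 5.58, 4.98 and 3.44 CPM in control, 5.84, 5.09 and 3.95 CPM with WT TYRO3, 4.25, 4.45 and 4.42 CPM with ΔGS, and 4.61, 6.14 and 3.65 CPM with ΔADAM. The groups overlapped throughout. The log2 fold changes were 0.14, -0.03 and 0.08, with 95% intervals of -0.29 to 0.56, -0.45 to 0.39 and -0.34 to 0.49. A change of 1.5-fold either way was outside these intervals, but this holds for this fit alone. With WT TYRO3 the change was -0.24 (SE 0.33) with length-scaled counts and -0.23 (SE 0.31) in limma at a pseudocount of 0.1 TPM, too wide to exclude 1.5-fold. No transcript stood for the gene: the one with the largest mean share, MLPH-216, which retains an intron, held 18.9% of its TPM.

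MYO5A (ENSG00000197535, chr15:52307283-52529050, minus strand) encodes myosin Va, the actin motor of the complex. Its level was 160.4, 193 and 197 CPM in control, 133, 147 and 182 CPM with WT TYRO3, 127, 140.4 and 97.9 CPM with ΔGS, and 141, 142 and 139.9 CPM with ΔADAM. All ΔGS and ΔADAM libraries lay below the lowest control, and each of the 9 TYRO3 libraries lay below the control of its experiment. The share of all genes tested that do the same was not counted. The log2 fold change was -0.59 with ΔGS (SE 0.14, adjusted p = 0.0289), the only call among the 9 genes, at 1.51-fold, just past the threshold. It was -0.25 with WT TYRO3 (adjusted p = 0.325) and -0.38 with ΔADAM (adjusted p = 0.107). With the batch term for experiment 1 alone the ΔGS change was -0.59 (adjusted p = 0.0728). With no filter on low counts it was -0.58 (adjusted p = 0.00585), just short of 1.5-fold. Without the ΔGS library of experiment 3 it was -0.40 (adjusted p = 0.0414), short of 1.5-fold. It no longer passed without any one of the 3 control libraries, the ΔADAM library of experiment 1 or the ΔGS library of experiment 2, where the adjusted p reached 0.102.

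A pair of coding exons of MYO5A is used alternatively among its annotated transcripts, and melanophilin is known to bind a segment of the tail that an alternatively spliced exon encodes. Which of the exons below encodes that segment was not examined here, so no change of the form that binds melanophilin is read from the shares. The exons are shown because transcripts with the 81-base exon had a lower share in each TYRO3 library than in its control. The share of transcripts with the 75-base exon overlapped between the groups. An exon of 81 bases, or 27 codons, at chr15:52343117-52343197 is present in MYO5A-202, MYO5A-205 and MYO5A-206. An exon of 75 bases, or 25 codons, at chr15:52337810-52337884 is present in MYO5A-209. Both are on the minus strand of GRCh38 and were read from the GENCODE 29 transcripts in the sense direction.
MYO5A exon of 81 bases: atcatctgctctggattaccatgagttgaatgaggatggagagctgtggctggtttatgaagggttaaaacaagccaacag
MYO5A exon of 75 bases: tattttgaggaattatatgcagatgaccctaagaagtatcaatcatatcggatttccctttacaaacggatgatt
None of the annotated transcripts that span both positions carries both exons, so the shares cannot show RNA that holds both. MYO5A-201, MYO5A-204 and MYO5A-213 carry neither. MYO5A-204 is 1758 bases long with 12 exons. In control it held 19.0% of the TPM of MYO5A but 5.18% of its counts, so TPM gives it more weight than counts do.

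Transcripts with the 81-base exon held 32.3%, 34.7% and 31.3% of the TPM of the spanning transcripts in the control libraries. They held 19.7%, 25.2% and 28.1% with WT TYRO3, 18.9%, 18.0% and 26.6% with ΔGS, and 18.6%, 22.1% and 16.0% with ΔADAM. The 9 TYRO3 libraries did not overlap the 3 controls. How often transcript shares of other genes separate in this way was not counted, so nothing particular to MYO5A is read from it. The mean differences within experiments were -8.41 ± 4.82, -11.6 ± 6.22 and -13.9 ± 1.30 percentage points (SD, n = 3). The share with the 75-base exon overlapped between the groups, at 27.2% to 39.9% in control and 12.1% to 50.7% in the TYRO3 libraries, and so did the share with neither, at 25.5% to 41.5% and 29.6% to 61.3%. These shares were singled out after their values were seen and are given without a test. The transcripts also differ outside the exons, MYO5A-205 being 12225 bases long and MYO5A-209 5989, and kallisto divides reads among transcripts by all of their sequence, so the shares are not counts of reads over the exons. MYO5C, a paralogue, was at 7.01 to 13.4 CPM in all libraries and MYO5B at 0.190 to 0.789 CPM. Neither paralogue passed in any comparison with control.

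**Figure D3:**
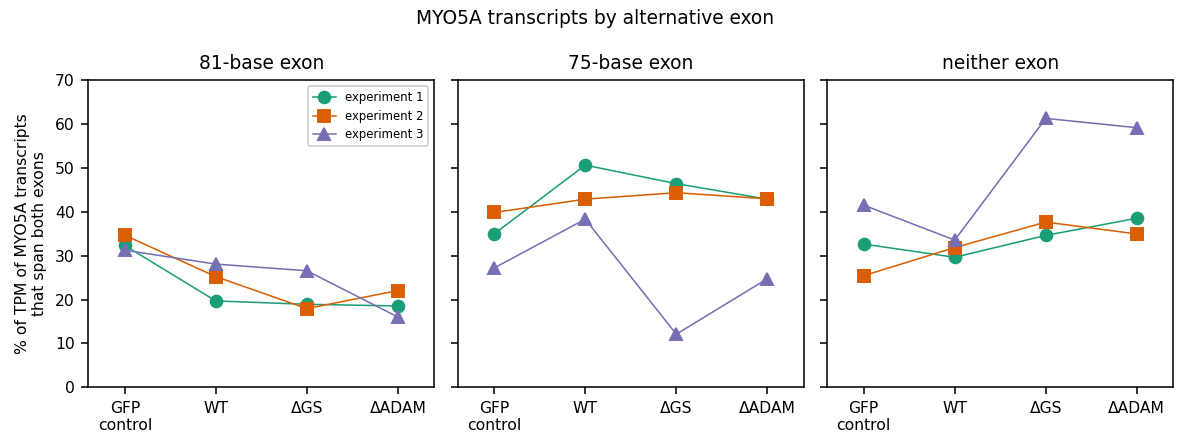
Share of the TPM of the MYO5A transcripts that span both exons (vertical axis, %) held by transcripts with the 81-base exon, with the 75-base exon or with neither, by group and experiment. The share with the 81-base exon is 31.3% to 34.7% in the controls and 16.0% to 28.1% in the TYRO3 libraries; the other shares overlap.

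RAB38 (ENSG00000123892, chr11:88113242-88175467) and RAB32 (ENSG00000118508, chr6:146543693-146554965) encode related GTPases that act with the adaptors and BLOC complexes to deliver tyrosinase and related cargo. RAB38 was at 36.6, 53.7 and 69.0 CPM in control, 35.3, 43.1 and 63.0 CPM with WT TYRO3, 34.3, 47.3 and 63.4 CPM with ΔGS, and 34.6, 44.8 and 53.2 CPM with ΔADAM. The experiments differed more than the groups: experiment 1 was the lowest and experiment 3 the highest in every group. The log2 fold changes of RAB38 were -0.18, -0.14 and -0.25, with adjusted p-values of 0.256, 0.307 and 0.0822. RAB32 was at 24.5, 32.5 and 38.3 CPM in control, 21.8, 25.1 and 34.4 CPM with WT TYRO3, 18.7, 28.3 and 40.3 CPM with ΔGS, and 19.7, 29.6 and 28.97 CPM with ΔADAM. Its log2 fold changes were -0.22, -0.15 and -0.27, with adjusted p-values of 0.342, 0.473 and 0.183. Neither gene passed in any comparison, and 1 transcript held nearly all the TPM of each, with mean shares of 99.3% for RAB38 and 100% for RAB32.

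HPS4 (ENSG00000100099, chr22:26443423-26483837, minus strand) and HPS1 (ENSG00000107521, chr10:98416198-98446947, minus strand) encode the subunits of BLOC-3, the exchange factor that activates RAB32 and RAB38. HPS4 was at 159, 155 and 153 CPM in control, 105, 111 and 139 CPM with WT TYRO3, 110.2, 124 and 118 CPM with ΔGS, and 109, 119.7 and 119 CPM with ΔADAM. In CPM it was the only one of the 9 genes for which no TYRO3 library of any kind reached the lowest control. This did not hold in TPM. There WT of experiment 3 had 70.8 TPM and ΔADAM of experiment 2 had 65.5, beside 64.4 in the control of experiment 1. The share of all genes tested with such a gap in CPM was not counted, so nothing particular to HPS4 is read from it. On the log2 scale the change was -0.40 for WT TYRO3 (SE 0.09, adjusted p = 0.0438), -0.41 with ΔGS (adjusted p = 0.0245) and -0.43 with ΔADAM (adjusted p = 0.0197), that is 24.1%, 24.5% and 25.6% lower. With the batch term for experiment 1 alone the adjusted p was 0.119, 0.0712 and 0.0574, and without the control library of experiment 1 it was 0.180, 0.107 and 0.0970. HPS4 also passed for no plasmid in limma with a pseudocount of 1 (0.261, 0.0771 and 0.179) or in experiments 2 and 3 alone (0.587, 0.199 and 0.217). It passed for ΔGS alone with length-scaled counts (0.148, 0.0463 and 0.0822) and for ΔADAM alone with only the groups compared (0.127, 0.0798 and 0.0229). With WT TYRO3 the pass was lost in 10 of the 12 cases of leaving out a library, all but those of WT and ΔGS of experiment 3. With ΔGS it was lost in 6, those of the control, ΔGS and ΔADAM libraries of experiment 1, the control and ΔGS libraries of experiment 2 and ΔGS of experiment 3. With ΔADAM it was lost in 3, those of control and ΔADAM of experiment 1 and ΔADAM of experiment 3. The log2 fold change stayed between -0.52 and -0.32 in all of them. Exons of HPS4 overlap those of ASPHD2 on the opposite strand, at a mean of 10.3 CPM.

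HPS1 was at 38.7, 45.4 and 44.8 CPM in control, 41.3, 39.6 and 47.1 CPM with WT TYRO3, 35.9, 42.1 and 51.4 CPM with ΔGS, and 37.1, 42.4 and 43.2 CPM with ΔADAM. Its log2 fold changes were -0.01, -0.01 and -0.07, with 95% intervals of -0.22 to 0.20, -0.21 to 0.20 and -0.28 to 0.13. The mRNAs of both BLOC-3 subunits thus had different fitted changes, HPS4 passing and HPS1 lying near 0; the difference between the genes was not tested. Transcripts annotated as protein coding held 25.0% to 30.5% of the TPM of HPS1 and 42.1% to 66.6% of that of HPS4, and the rest was assigned to transcripts annotated as non-coding or as targets of decay.

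AP3B1 (ENSG00000132842, chr5:78000525-78294755, minus strand) encodes the large beta subunit of AP-3, the adaptor that sorts tyrosinase from endosomes. It was at 97.9, 102 and 106 CPM in control, 84.6, 99.4 and 99.5 CPM with WT TYRO3, 87.4, 96.7 and 83.3 CPM with ΔGS, and 86.0, 95.7 and 90.0 CPM with ΔADAM. In CPM every TYRO3 library was below the control of its own experiment, with log2 differences from -0.35 to -0.03. In TPM the WT library was above its control in experiment 2 (45.2 beside 43.9) and in experiment 3 (43.7 beside 41.9). The share of all genes tested that lie below control in every TYRO3 library was not counted. The log2 fold changes were -0.11, -0.19 and -0.17, with adjusted p-values of 0.453, 0.143 and 0.185.

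LYST (ENSG00000143669, chr1:235661041-235883640, minus strand) encodes the large BEACH-domain protein that limits the size of lysosome-related organelles. It was at 96.8, 151 and 112 CPM in control, 48.0, 118 and 114 CPM with WT TYRO3, 58.5, 110.3 and 54.5 CPM with ΔGS, and 53.2, 114 and 72.1 CPM with ΔADAM. The groups overlapped, and experiment 1 was below experiment 2 in each of them. The log2 fold changes were -0.39 (SE 0.20), -0.71 (SE 0.20) and -0.62 (SE 0.20), with adjusted p-values of 0.285, 0.0510 and 0.0696. None of these passed the test. By DESeq2 the ΔGS and ΔADAM changes of LYST passed at -0.72 (adjusted p = 0.00497) and -0.63 (adjusted p = 0.0164), and without the control library of experiment 1 edgeR gave -0.57 (adjusted p = 0.187) and -0.49 (adjusted p = 0.253). The WT change rested on single libraries. Without the WT library of experiment 3, which was level with its control, it was -0.71 (adjusted p = 0.0305), and without that of experiment 1 it was -0.17 (adjusted p = 0.734). In experiments 2 and 3 alone it was -0.13 (adjusted p = 0.939).

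One library stood apart in a way that touched the long genes. In the ΔGS library of experiment 3, the tenth of genes with the longest transcripts had a median log2 difference from control of -0.36 and the tenth with the shortest had 0.28. In the other 8 differences these medians were -0.06 to 0.11 and -0.14 to 0.03. LYST (97th percentile of effective length) and MYO5A (95th percentile) are long, and in that library LYST had 54.5 CPM beside 112 in its control and MYO5A 97.9 CPM beside 197. With the length trend of each library removed, the ΔGS change of MYO5A was -0.49 (adjusted p = 0.00545), no longer called, and that of LYST -0.59 (adjusted p = 0.0380), then called. MYO5A then also passed with WT TYRO3, at -0.29 (adjusted p = 0.0460), and with ΔADAM, at -0.38 (adjusted p = 0.0113), and LYST with ΔADAM, at -0.61 (adjusted p = 0.0287). Without the ΔGS library of experiment 3 the ΔGS change of LYST was -0.48 (adjusted p = 0.136).

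**Figure D4:**
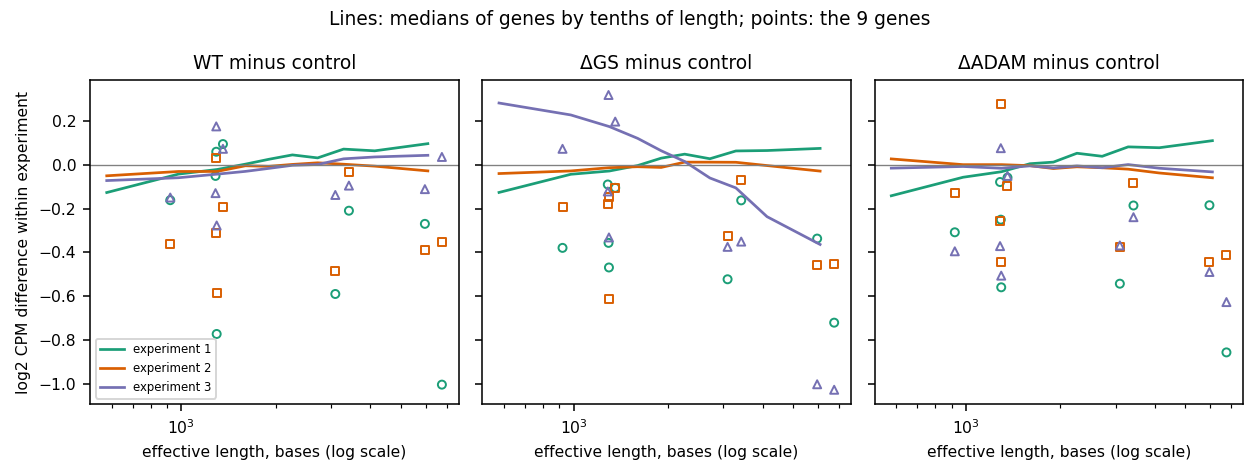
Log2 CPM difference from the control of the same experiment (vertical axis) against effective gene length (log scale); lines are medians of all tested genes in 10 bins of length and points are the 9 genes. The ΔGS line of experiment 3 runs from 0.28 to -0.36, whereas the other lines stay between -0.14 and 0.11 at their ends.

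The second question was whether the forms of TYRO3 differed, since ADAM sheddases and then gamma-secretase cut the wild-type receptor and release its intracellular domain, while ΔADAM resists the former cut and ΔGS the latter. Between WT TYRO3 and the mean of both variants, and between ΔGS and ΔADAM, 0 of the 9 genes and 0 of all 15098 (0%) passed by edgeR. At an unadjusted p under 0.05 there were 0 of the 9 genes in either, beside 237 and 216 of all genes, and DESeq2 called 5 and 1 of all genes. The largest difference between WT and the variants was that of LYST, at 0.27 (95% interval -0.10 to 0.64), followed by MYO5A at 0.23 (-0.03 to 0.49). RAB27A differed by -0.05 (-0.25 to 0.15) and HPS4 by 0.02 (-0.15 to 0.19), so for these genes a difference of 1.5-fold between the forms lay outside the interval. The MYO5A difference was 0.065 without the WT library of experiment 3, 0.31 without that of experiment 1, 0.13 without the ΔGS library of experiment 3 and 0.14 with length trends removed, and that of LYST was -0.035 without the WT library of experiment 3. In ΔGS against ΔADAM MYO5A differed by -0.21 (-0.52 to 0.09), which was -0.023 without the ΔGS library of experiment 3 and -0.11 with length trends removed.

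The other genes of sorting and transport were followed in 8 lists of 72 genes, of which 69 were tested. They had median log2 fold changes of -0.07, -0.08 and -0.08 with WT, ΔGS and ΔADAM TYRO3, 45, 44 and 46 of them were lower, and none was called. The test was passed by 1, 1 and 3 of the 69, all lower than control, that is 1.45%, 1.45% and 4.35% beside the 3.58%, 8.95% and 10.2% of all genes that passed either way. The list medians ran from -0.14 (AP-1) to 0.03 (BEACH proteins related to LYST) with WT TYRO3, from -0.25 (AP-1) to 0.03 (BEACH proteins) with ΔGS, and from -0.14 (AP-1) to -0.02 (BEACH proteins) with ΔADAM. BLOC-1, which builds tubules from endosomes to melanosomes, had medians of -0.09, 0.01 and -0.09 over 8 genes, BLOC-2, its partner, 0.02, -0.07 and -0.02 over 3, and the other AP-3 subunits -0.09, -0.13 and -0.09 over 6. HOPS and CORVET, the tethers of endosomes and lysosomes, had -0.04, -0.02 and -0.07 over 8. The SNAREs with the RAB32 and RAB38 effector had -0.07, -0.09 and -0.09 over 6, and the motors, other RABs and RAB27 effectors had -0.13, -0.11 and -0.05 over 25.

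The genes of these lists that passed were named after their values were seen. STX3, a SNARE that takes part in delivery to melanosomes, was at 155, 149 and 182 CPM in control, 96.7, 113 and 150.5 CPM with WT TYRO3, 102, 110.2 and 143 CPM with ΔGS, and 95.6, 110.4 and 131 CPM with ΔADAM. Each TYRO3 library was below its control, and the share of all genes tested that do the same was not counted. The log2 fold changes were -0.45, -0.46 and -0.53 with adjusted p-values of 0.0198, 0.0116 and 0.00607. With the batch term for experiment 1 alone these were 0.192, 0.128 and 0.0805. With WT TYRO3 the pass of STX3 was also lost without the control library or the WT library of experiment 1 or the WT library of experiment 2, and with ΔGS without the ΔGS library of experiment 2. MREG, melanoregulin, which acts in melanosome positioning and transfer, passed with ΔADAM at -0.38 (adjusted p = 0.0457), and was at -0.37 with both WT TYRO3 (adjusted p = 0.0836) and ΔGS (adjusted p = 0.0571). RAB9A, a GTPase of late endosomes, passed with ΔADAM at -0.32 (adjusted p = 0.0479). Both lost the pass on leaving out most libraries, in 10 and 11 of 12 cases.

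**Figure D5:**
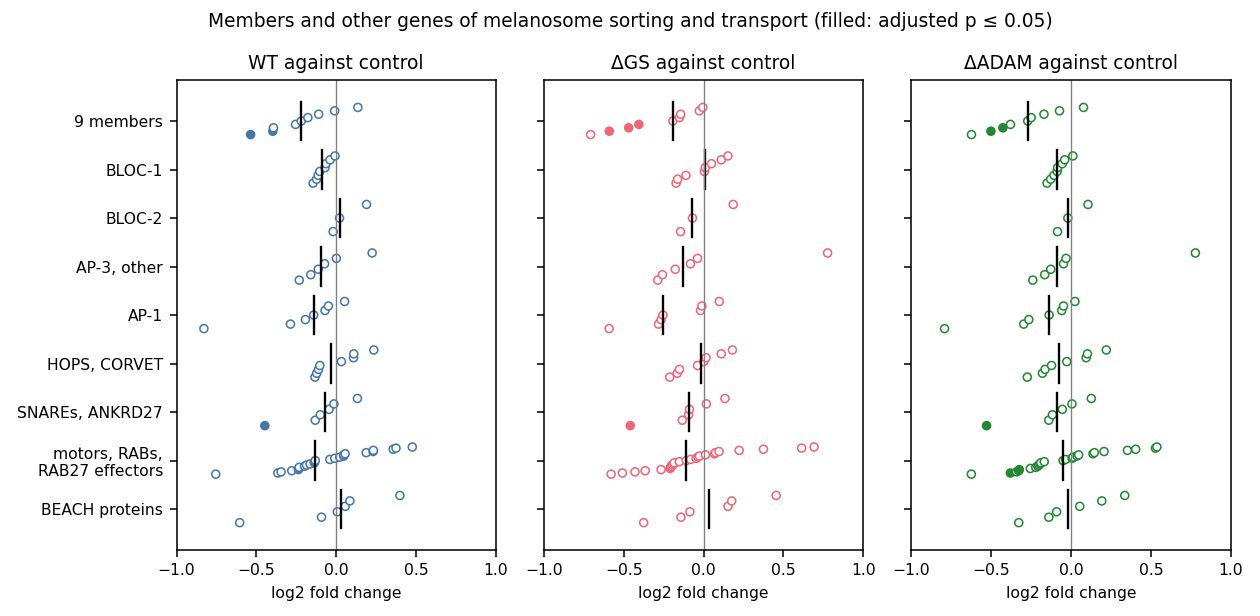
Log2 fold change against control (horizontal axes) of the 9 genes and of the 69 tested genes of 8 related lists, one point per gene, with black bars at list medians and filled points for an adjusted p of at most 0.05. The medians of the 9 genes are -0.22, -0.19 and -0.27, and those of the other lists lie between -0.25 and 0.03.

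Of the 8 melanocyte markers, 7 had lower fitted levels in each comparison, beside 50.5%, 49% and 50.3% of all genes. Their medians were -0.48, -0.38 and -0.48, and 0, 2 and 3 passed, beside 3.58%, 8.95% and 10.2% of all genes either way. TYRP1 had log2 fold changes of 0.66, 0.55 and 0.73, none passing. DCT had log2 fold changes of -1.02, -1.24 and -1.24, the latter pair passing. MITF, the lineage transcription factor, was lower than control in 9 of 9 within-experiment differences. The share of all genes tested with 9 of 9 lower was not counted. The part of the marker differences in those of the 9 genes was not tested.

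The genes most like each of the 9 across the 12 libraries were found from the Pearson correlation of log2 CPM centred within each experiment. The libraries share groups, depth and length trends, so the values only describe likeness. HPS4 was most like MREG (r = 0.994) and TBC1D14 (0.990), and RAB27A most like FAM174B (0.982) and STRADB (0.978). LYST was most like KIAA0319L (0.992) and ZDHHC17 (0.991), AP3B1 like TEX2 (0.989) and TNIK (0.987), and MYO5A like DIP2B (0.983) and ZNF106 (0.982). RAB32 was most like NUDT13 (0.980) and DENND6B (0.961), RAB38 like TM4SF19 (0.966) and AC118553.2 (0.919), HPS1 like DDB2 (0.909) and ZNF497 (0.889), and MLPH like PIGF (0.864) and SPATA6 (0.834). Among the 9 genes themselves the closest pairs were AP3B1 with LYST (0.952) and RAB27A with HPS4 (0.930).

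Promoter windows of 250 bases before a RefSeq start on GRCh38.p14 were held for 6 of the 9 genes, 16 windows in all. MITF is known to bind the E-box letters CATGTG and CACGTG and the M-box TCATGTG, which contains the first. Both strands were searched; CACGTG was added after the first results. CATGTG was found in 3 windows, 1 of HPS4 and 2 overlapping ones of LYST, CACGTG in 1 window of MLPH, and TCATGTG in 0, where 9.42%, 6.34% and 2.52% of all 35116 windows held them. The windows nearest the start of the leading transcripts of RAB27A and HPS4, the genes that passed with every plasmid, held none of the 3 motifs. They are printed with the HPS4 and MLPH windows that hold a match, in capitals, in the sense direction of the gene.
RAB27A, chr15:55270923-55271172, minus strand: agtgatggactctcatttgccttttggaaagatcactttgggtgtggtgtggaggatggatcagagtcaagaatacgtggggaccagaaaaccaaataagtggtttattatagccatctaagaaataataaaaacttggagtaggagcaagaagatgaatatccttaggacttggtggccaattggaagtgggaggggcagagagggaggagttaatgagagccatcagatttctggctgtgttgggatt
HPS4, chr22:26483784-26484033, minus strand: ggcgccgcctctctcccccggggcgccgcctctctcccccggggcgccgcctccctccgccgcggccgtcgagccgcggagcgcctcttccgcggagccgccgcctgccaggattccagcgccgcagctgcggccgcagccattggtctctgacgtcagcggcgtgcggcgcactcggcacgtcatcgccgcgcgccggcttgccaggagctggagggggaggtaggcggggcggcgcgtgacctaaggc
HPS4, chr22:26479489-26479738, minus strand: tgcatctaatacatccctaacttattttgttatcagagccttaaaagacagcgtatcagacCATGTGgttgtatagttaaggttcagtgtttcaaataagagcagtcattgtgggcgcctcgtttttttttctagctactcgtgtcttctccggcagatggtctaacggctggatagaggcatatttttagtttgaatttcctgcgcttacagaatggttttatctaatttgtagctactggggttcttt
MLPH, chr2:237487001-237487250, plus strand: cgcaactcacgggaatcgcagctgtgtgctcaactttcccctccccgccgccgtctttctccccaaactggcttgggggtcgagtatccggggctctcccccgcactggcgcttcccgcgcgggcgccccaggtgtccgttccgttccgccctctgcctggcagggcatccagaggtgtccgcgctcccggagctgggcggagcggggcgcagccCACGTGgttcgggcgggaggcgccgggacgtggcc
The HPS4 match begins 189 bases and the MLPH match 35 bases before the RefSeq start of that window. A match describes the letters only, since no binding was measured here.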

How the data were processed

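WM-266-4 cells with stable TYRO3 knock-down were sequenced in 12 libraries (polyA RNA, TruSeq Stranded). The deposited values are estimated counts and TPM per transcript, which the authors made with kallisto 0.46.0 against Ensembl 96 transcripts (GRCh38) after read trimming with Trimmomatic 0.33 and checks with FastQC 0.11.9, per the submitters' processing notes and the study's methods. The TPM was scaled by the authors per library. Here, 169797 of 188753 transcripts were joined to GENCODE 29 genes by identifier without version, keeping 97.4% to 97.5% of counts, and summed per gene. The 9 genes and all lists were chosen with earlier results of these data known.

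Summed counts were rounded and fitted for 4 groups with edgeR 4.0.16 (TMM, quasi-likelihood test, filterByExpr with a minimum of 10 counts and a total of 15), with a term for each experiment. A gene passed at a Benjamini-Hochberg adjusted p of at most 0.05 and was called where the fold also exceeded 1.5. The pairing comes from the experiment numbers of the labels. Deviations from the group means correlated at 0.179 to 0.712 in 18 pairs of libraries of the same experiment and at -0.543 to 0.0288 in 36 pairs of different experiments. The deviations of a group cancel over its own libraries, so positive values in the former force negative ones in the latter. The contrast is thus partly built in. The labels do not say that experiments were separate cultures, so p-values measure the spread between these libraries. The study instead corrected its TPM for the split of experiment 1 from the others with batchelor, not used here. Alternatives were a batch term for experiment 1 against 2 and 3 or none, RLE size factors, DESeq2 1.42.0, limma 3.58.1 on log2 TPM (pseudocount 1 or 0.1), length-scaled counts, other filters, subsets of libraries and, added after the data were seen, removal of length trends. On simulated data of 15098 genes for WT TYRO3 against control, 84.5% of 200 genes changed 2-fold were called, with 15 false calls. The changed genes were drawn from those above a floor on the mean count. The fitted changes of the 9 genes were all smaller than 2-fold, so this rate does not carry over to them. Genes named were TYRO3, the 9 genes, called genes of the lists (none), the 2 most correlated genes per member and 3 paralogues; markers, and list genes that passed, are named besides. Python 3.11.15 and R 4.3.3 were used.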

Additional observations from a re-analysis of the deposited data

How the results depend on the processing

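The number of the 9 genes called was 0 with WT TYRO3, 1 with ΔGS and 0 with ΔADAM. Without the replicate block it was 0 for ΔGS, both with a batch term for experiment 1 alone and with none, and no gene of the 9 passed any comparison. For ΔGS it was also 0 with limma at either pseudocount, with length-scaled counts, with at least 10 counts in every library and in experiments 2 and 3 alone, and 2 with DESeq2 (MYO5A and LYST). It stayed at 1 but was LYST in place of MYO5A with no filter, with only the groups compared, where the adjusted p of MYO5A was 0.0725, and with length trends removed. For ΔADAM it was 1, LYST, with DESeq2, with no filter, with only the groups compared and with length trends removed. With no threshold on the fold it was 2, 3 and 2. Leaving out each library in turn gave 0 to 2, 0 to 2 and 0 to 1. Over all genes, calls with WT, ΔGS and ΔADAM were 355, 708 and 784. They were 6, 69 and 168 with the term for experiment 1, 3, 4 and 5 without any, 610, 830 and 875 with DESeq2, 577, 828 and 915 unfiltered, 30, 469 and 639 with only the groups compared, 47, 189 and 218 in experiments 2 and 3, and 148, 269 and 288 without the first control library. They were 541, 1352 and 1537 with no fold threshold, and limma with a pseudocount of 1 gave 233, 418 and 499, and of 0.1 gave 228, 423 and 518. Length-scaled counts gave 242, 549 and 571. The subsets hold fewer libraries, but the causes of these differences were not tested.

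Directions turned only for values that did not pass. For MLPH with WT TYRO3 the log2 fold change became -0.21 and -0.23 in limma and -0.24 with length-scaled counts. With ΔADAM it became -0.023 and -0.017 in limma and -0.012 with length-scaled counts, and ran from -0.10 to 0.17 on leaving out a library. With ΔGS it was 0.10 in experiments 2 and 3 alone and -0.22 to 0.074 on leaving out a library. For HPS1 with WT TYRO3 it was 0.044 and 0.045 in limma, 0.0074 with at least 10 counts in every library, 0.011 with length trends removed and -0.074 to 0.063 on leaving out a library. With ΔGS it was 0.00066 with the term for experiment 1, 0.0014 with only the groups compared, 0.0079 with at least 10 counts, 0.053 in experiments 2 and 3 and -0.098 to 0.060 on leaving out a library. For LYST, WT TYRO3 against the variants ran from -0.035 (without WT of experiment 3) to 0.50, and ΔGS against ΔADAM from -0.22 to 0.13 (without ΔGS of experiment 3), with 0.027 once length trends were removed. The cause of these turns was not tested. MLPH had few counts, with 21 in its lowest library, the control of experiment 1, and whether depth bears on its turns was not tested.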
